A study of Mus musculus with 2 samples.

Results

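The 37 genes described here are those of the mouse mitochondrial genome, chromosome M: 2 ribosomal RNA (rRNA) genes, 13 protein-coding (mRNA) genes and 22 transfer RNA (tRNA) genes. They were chosen by name, as every gene of the deposited tables whose symbol starts with mt-, from 43346 genes in all. The 15 rRNA and mRNA genes had counts in both libraries, and all 22 tRNA genes were at 0 in both. The libraries are total RNA from forebrain of newborn mice (0 day, strain B6NTac;B6NCrl/Lap, males and females pooled, healthy), size-selected above 200 nt, depleted of rRNA and sequenced as stranded read pairs. Replicate 1 pooled 15 mice, and replicate 2 pooled a number of mice that the labels leave out. The labels call them independent isolates but give both the same donor identifier, and they form 1 group (n = 2). There is therefore no comparison between conditions and no test. Each ± is an SD over these 2 libraries, a spread that may be technical. On log2 ratios of replicate 2 over replicate 1 the ± is instead an SE, defined below.

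The mitochondrial genome is transcribed from both strands into long precursors. Cutting at the tRNAs that lie between most genes releases the rRNAs and mRNAs. The mRNAs encode membrane subunits of respiratory complexes I (mt-Nd genes), III (mt-Cytb) and IV (mt-Co genes) and of ATP synthase, complex V (mt-Atp genes), and all other subunits of these complexes are encoded in the nucleus. The rRNAs, mt-Rnr1 of the small and mt-Rnr2 of the large subunit, build the mitochondrial ribosome that translates these mRNAs. Neurons depend on this system for most of their ATP. Nuclear chromosomes carry stretches of mitochondrial sequence, and reads from such a copy and from the gene itself cannot be told apart where the sequences are the same.

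Sequence features that bear on what could be counted are shown here, 5′ to 3′ from the GENCODE M21 transcripts (mm10, the assembly of the deposited tables). mt-Atp8 is the shortest mRNA gene at 204 nt (plus strand, chrM:7766-7969), and its last 43 bases, in capitals, are also the start of mt-Atp6.
mt-Atp8: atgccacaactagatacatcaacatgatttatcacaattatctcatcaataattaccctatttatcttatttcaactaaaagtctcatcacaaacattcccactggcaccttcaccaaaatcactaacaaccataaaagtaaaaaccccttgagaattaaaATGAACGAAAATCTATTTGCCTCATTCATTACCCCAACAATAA
mt-Nd4l (297 nt, plus strand, chrM:9877-10173) has an annotated nuclear copy, Gm10222 (294 nt, minus strand, chr1:24612407-24612700), that is identical but for lacking the 3 bases in capitals.
mt-Nd4l: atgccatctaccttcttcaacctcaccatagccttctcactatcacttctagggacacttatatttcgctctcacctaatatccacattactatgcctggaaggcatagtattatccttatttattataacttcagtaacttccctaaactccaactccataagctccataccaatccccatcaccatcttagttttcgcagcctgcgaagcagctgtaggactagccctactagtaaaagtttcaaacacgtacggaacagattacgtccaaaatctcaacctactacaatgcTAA
The shortest and longest tRNA genes are shown for their length, well under that of the sequenced fragments: mt-Ts2 (59 nt, plus strand, chrM:11613-11671), a serine tRNA, and mt-Tl1 (75 nt, plus strand, chrM:2676-2750), a leucine tRNA.
mt-Ts2: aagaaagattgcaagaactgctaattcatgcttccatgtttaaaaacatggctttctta
mt-Tl1: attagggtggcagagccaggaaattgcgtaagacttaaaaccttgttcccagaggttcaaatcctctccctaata
mt-Nd5 (plus strand) and mt-Nd6 (minus strand) run toward each other and share 14 bp at their ends, in capitals, each gene read on its own strand.
mt-Nd5 last bases: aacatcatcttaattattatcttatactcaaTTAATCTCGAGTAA
mt-Nd6 last bases: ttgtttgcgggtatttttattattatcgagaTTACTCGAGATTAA

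Mitochondrial genes took 16.1% of all gene counts in replicate 1 (95% Wilson interval 16.06 to 16.07%) and 15.9% in replicate 2 (15.89 to 15.91%), a mean of 15.98 ± 0.119%. Nearly all of it was rRNA that remained after the depletion. The rRNA genes held 14.9 and 14.6% of counts (14.7 ± 0.213%), the mRNA genes 1.16 and 1.30% (1.23 ± 0.0945%), and the tRNA genes 0. The libraries held 61441535 and 65097130 expected counts on genes, the estimated number of read pairs per gene, and intervals and floors here cover counting error only. RNA polymerase III transcripts (Rn7s1, Rn7s2, Rn7sk, Rpph1 and Rmrp) took 12.2% of counts in replicate 1 and 4.66% in replicate 2, so they weigh on every share of the total. Within protein-coding genes alone, the mitochondrial mRNAs held 1.649 and 1.654% of counts. On that denominator the libraries lay closer together than on all gene counts. By TPM the shares were smaller and further apart, at 5.13 and 8.27% for all mitochondrial genes and 0.551 and 1.06% for their mRNAs, with the polymerase III RNAs at 79.5 and 68.3% of TPM.

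All 10 markers of the labelled tissue, forebrain, had counts, with medians of 75.6 and 73.2 coding TPM, that is TPM (the deposited level per effective length) rescaled so that protein-coding genes alone make up the TPM total. The 7 genes listed as markers of other regions had medians of 0.222 and 0, and 3 of them, all Hox genes, were at 0 in both libraries. The highest of the 7, Gbx2, stood at 8.93 and 13.8 coding TPM, above the lowest forebrain marker, Emx2, at 3.03 and 5.77. Whether the Gbx2 counts came from outside the forebrain was not tested. Of the 3 among these 7 with a mean count of 10 or more, En1 (46 and 15 counts) and En2 (33 and 4) were past 2-fold lower in replicate 2, beside 5.16% of all genes. Among the markers of tissues rich in mitochondria (brown fat, muscle and heart), all 6 had counts, with summed counts of 1069 and 920 and medians of 1.92 and 1.95 coding TPM. Of these 6, 2 were past 2-fold higher and 3 past 2-fold lower in replicate 2, where 5.83% of all genes with a mean count of 10 or more were higher and 5.16% lower by that much. Ucp1, which defines brown fat, had 25 and 2 counts. The blood markers Hbb-bs and Hba-a1 stood at 673 ± 175 and 468 ± 110 coding TPM, and the choroid plexus markers Ttr and Kl at 580 ± 188 and 1.44 ± 0.0491. Log2 ratios of replicate 2 over replicate 1 were -0.74 for Hbb-bs, -0.71 for Hba-a1, -0.85 for Ttr and -0.26 for Kl. The part of these other cells in the results was not tested. In bulk tissue, fewer cells of a type and less RNA per cell cannot be told apart.

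The large rRNA was the most abundant gene of the forebrain libraries by count. mt-Rnr2 (ENSMUSG00000064339.1, 1582 nt, chrM:1094-2675) had 8321211 and 8599049 counts in replicates 1 and 2 and ranked first of all genes in both. mt-Rnr1 (ENSMUSG00000064337.1, 955 nt, chrM:70-1024) had 833865 and 904578 counts and had rank 5 in both. Both ranks were therefore the same in the 2 pools. mt-Rnr2 made up 90.9 and 90.5% of mitochondrial rRNA counts. Per length, the TPM of mt-Rnr2 was 5.29 and 4.97 times that of mt-Rnr1 (5.13 ± 0.228). The ribosome holds one molecule of each, and the extent to which the depletion removed each rRNA is not given in the sources used here, so this ratio is what remained in the libraries. mt-Rnr2 stood at 103 and 94.5 times the TPM of mt-Nd1, the next gene downstream in the same direction after a tRNA.

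Among the mRNAs, those of cytochrome c oxidase, complex IV, dominated. mt-Co1, mt-Co2 and mt-Co3 together held 76.7 and 75.3% of the mitochondrial mRNA counts (76.0 ± 1.01%). The 7 complex I mRNAs held 15.8 and 17.5%, the pair of complex V mRNAs 4.21 and 3.95%, and mt-Cytb, the complex III subunit, 3.28 and 3.30%. The order of the complexes was the same in both libraries. The plot of counts per length in genome order shows that neighbours in the same precursor differed widely.

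**Figure D1:**
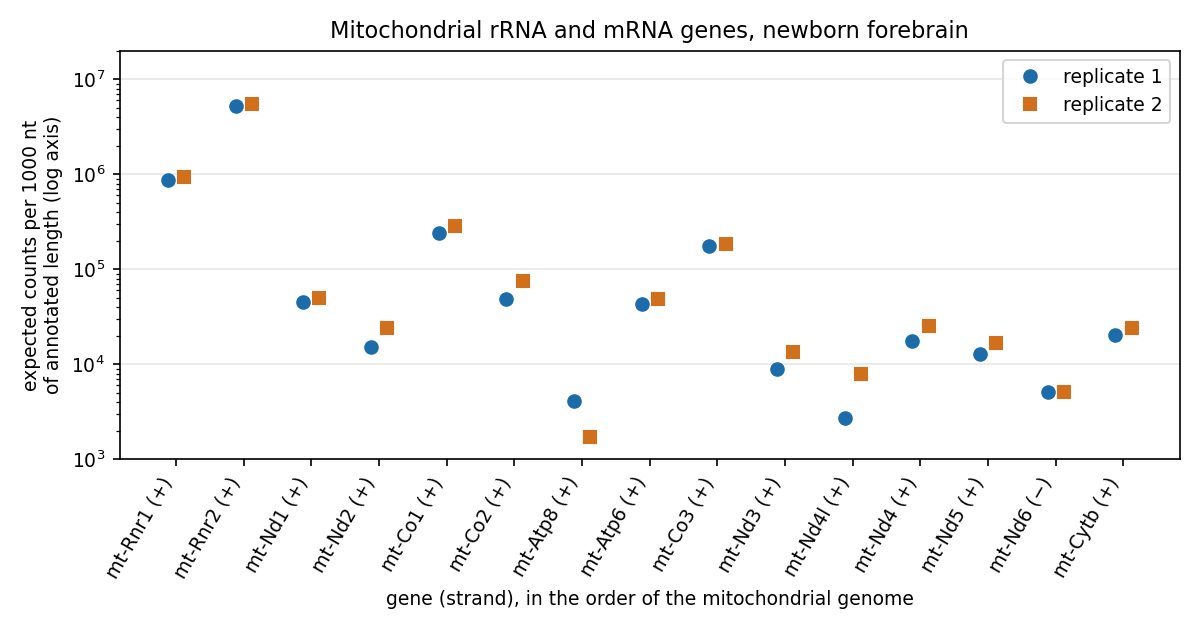
Expected counts per 1000 nt of annotated length (log axis) for the 15 rRNA and mRNA genes in genome order, with the strand in brackets; circles are replicate 1 and squares replicate 2. The 2 rRNA genes stand highest, mt-Co1 and mt-Co3 highest among the mRNAs, and mt-Atp8, mt-Nd4l and mt-Nd6 lowest.

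mt-Co1 (1545 nt, chrM:5328-6872), which encodes the catalytic subunit of complex IV, had 375881 and 438573 counts and stood at 13200 and 14289 coding TPM (13744 ± 770). It ranked second among all protein-coding genes by TPM in both libraries. mt-Co3 (784 nt, chrM:8607-9390), another core subunit, had 139504 and 145332 counts, 11851 and 11728 coding TPM (11789 ± 87.1), and had rank 3 in both. mt-Co2 (684 nt, chrM:7013-7696), the subunit that takes electrons from cytochrome c, had 33024 and 51803 counts and 3448 and 5187 coding TPM (4318 ± 1229). Its rank moved from 17 to 8. The levels of mt-Co1 and mt-Co3 did not overlap with each other or with that of mt-Co2 between the libraries. Each of these genes has a nuclear copy, described below, and the levels hold only the reads put on the gene. The deposited posterior SD, an error of that division, was 33.3 and 10.5% of the count for mt-Co2. For mt-Co3 it was 15.9 and 10.2%, which the ± does not cover. With copies added, the share of mt-Co2 in mitochondrial mRNA by annotated length was 13.6% in place of 8.72%.

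mt-Atp6 (681 nt, chrM:7927-8607), a subunit of the proton channel of ATP synthase, followed with 29255 and 33017 counts and 3076 and 3330 coding TPM (3203 ± 180). mt-Nd1 (957 nt, chrM:2751-3707), a membrane subunit of complex I, had 43047 and 47686 counts and 2765 and 2881 coding TPM (2823 ± 82.0). Per 1000 nt of annotated length mt-Nd1 and mt-Atp6 changed places, and their shares overlapped between the libraries on that scale. For mt-Atp6, which also has a nuclear copy, the posterior SD was 16.5 and 28.9% of the count. mt-Cytb (1144 nt, chrM:14145-15288), the subunit of complex III that holds its hemes b, had 23430 and 27850 counts and 1191 and 1323 coding TPM (1257 ± 93.4).

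The longer of the other plus-strand complex I mRNAs, mt-Nd4, mt-Nd2 and mt-Nd5, stood below mt-Nd1 in both libraries. mt-Nd4 (1378 nt, chrM:10167-11544) had 24234 and 34692 counts and 1139 ± 229 coding TPM, and mt-Nd2 (1038 nt, chrM:3914-4951) had 15824 and 25019 counts and 1132 ± 311 coding TPM. Both encode proton-pumping subunits. mt-Cytb, mt-Nd4 and mt-Nd2 are neighbours in the order of levels and overlapped between the libraries. mt-Nd5 (1824 nt, chrM:11742-13565), the longest mRNA gene and also a proton-pumping subunit, had 23437 and 30592 counts and 748 ± 99.4 coding TPM, below mt-Nd2 in both libraries. mt-Co1 was thus 19.5 and 17.5 times mt-Nd5 by TPM, although both lie on the plus strand.

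For the shortest genes the level depended on the scale. For mt-Nd3 and mt-Nd4l it also depended on how reads were divided with their nuclear copies. TPM divides by the effective length, the number of places where a fragment can start, and mean fragments measured 248.7 and 269.7 nt. mt-Nd4l, a small complex I subunit, had effective lengths of 49.96 and 31.42 nt for its 297 nt, and its TPM was 0.757 and 2.38 times that of mt-Nd4, with which it overlaps by 7 nt. Per 1000 nt of annotated length it was 0.155 and 0.312 times mt-Nd4. mt-Nd3 (348 nt, chrM:9459-9806), another complex I subunit, had 3131 and 4682 counts, and its share of mitochondrial mRNA was 4.28 ± 1.12% by TPM. By annotated length that share was 1.40 and 1.77%. With copies added its mean on that scale was 3.31% in place of 1.58%. The levels of mt-Nd3, mt-Nd4l and mt-Cytb overlapped as neighbours on the TPM scale, and the place of mt-Nd4l moved from 10 to 5 among the 12 mRNAs with a TPM. The counts of mt-Nd4l were 811 and 2335, and with its copy added 2254 and 2564.

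mt-Atp8, a small subunit of ATP synthase, could not be placed by TPM at all. It had 833 and 350 counts but an effective length of 0, so its TPM is listed at 0 in both libraries. By counts per 1000 nt, mt-Atp6 was 10.5 and 28.3 times mt-Atp8, although both lie on 1 shared mRNA whose 43 common bases are printed above. Its 204 nt are shorter than the mean fragment of both libraries. The deposited posterior SD of its count was 0.

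All 22 tRNA genes, of 59 to 75 nt, were listed at 0 counts with an effective length of 0. Of these, 14 lie on the plus and 8 on the minus strand. A count of 0 would allow up to 3 counts of each library's total, but RNA above 200 nt was selected and mean fragments were longer than these genes, so the zeros do not measure the tRNAs' abundance. The separate tRNA entries of the tables, 26248 in number, were likewise all at 0.

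Annotated minus-strand genes held a very small part of the counts. The minus strand carries 9 of the 37 genes, mt-Nd6 and 8 tRNA genes. They held 0.0269 and 0.0257% of mitochondrial counts, all on mt-Nd6. Most of those mitochondrial counts are rRNA, and within mitochondrial mRNA counts mt-Nd6 held 0.371 and 0.314%. The zeros of the tRNA genes do not measure their abundance, so these shares are no measure of all minus-strand RNA. mt-Nd6 (ENSMUSG00000064368.1, 519 nt, chrM:13552-14070), a complex I subunit, had 2653 and 2655 counts and 445 and 441 coding TPM (443 ± 3.17), the lowest of the mRNAs with a TPM. The median of the 12 plus-strand mRNAs was 2.93 and 6.04 times mt-Nd6 by TPM, a log2 ratio of 1.55 and 2.59 (2.07 ± 0.738), with mt-Atp8 entering at its listed 0. Over the 11 that have a TPM it was 3.19 and 6.53 times mt-Nd6. Per 1000 nt of annotated length the ratio was 3.72 and 4.84. Its neighbours mt-Nd5 and mt-Cytb stood at 1.52 and 1.85 times and at 2.67 and 3.00 times mt-Nd6 by TPM. Both neighbours were above mt-Nd6 in both libraries. The labels call the libraries stranded, but whether the counting used the strand is not given in the sources used here, and the 14 bp shared with mt-Nd5 are at the ends of both genes. The strands also differ in base composition: the mt-Nd6 mRNA is 28.1% G and 5.97% C, while the 12 plus-strand mRNAs range from 5.88% G in mt-Atp8 to 16.1% G in mt-Co1.

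The annotation holds 15 nuclear genes, among those of the deposited tables, whose transcript matches chromosome M over at least 80% of its length at 90% identity or more. Of these, 7 had a mean of at least 10 counts, and none of the other 8 had more than 4 counts in a library. The 7 lie side by side within 4663 nt of chromosome 1 (chr1:24611535-24616197, minus strand), are annotated as unprocessed pseudogenes, and copy mt-Co1, mt-Co2, mt-Atp6, mt-Co3, mt-Nd3, mt-Nd4l and mt-Nd4 in the mitochondrial order. The copies of mt-Co2, mt-Atp6 and mt-Nd4l differ from the gene only in lacking its last 3 bases, and that of mt-Co3 in lacking its last base. The end of mt-Co2 and of its copy Gm28661 show this, with the bases that the copy lacks in capitals.
mt-Co2 last bases: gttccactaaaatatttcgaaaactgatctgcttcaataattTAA
Gm28661 last bases: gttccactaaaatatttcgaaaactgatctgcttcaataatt
In the copy of mt-Nd3, Gm28438, there is also T3C, counted from the first base of the gene and in capitals here.
mt-Nd3 first bases: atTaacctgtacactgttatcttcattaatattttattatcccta
Gm28438 first bases: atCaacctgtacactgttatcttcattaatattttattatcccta
The copy of mt-Co1, Gm29216, begins after base 1053 of the gene and differs at 6 bases near its start (T1056A, C1057T, A1059G, A1060G, C1062A and A1066T), in capitals.
mt-Co1 internal bases: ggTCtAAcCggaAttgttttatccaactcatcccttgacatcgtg
Gm29216 first bases: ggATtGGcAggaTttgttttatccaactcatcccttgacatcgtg
The copy of mt-Nd4, Gm28439, lacks the last 502 bases of the gene. In mt-Co3, mt-Nd4 and mt-Cytb, 3 of the 13 mRNA genes, the annotated length is no multiple of 3: their stop codon is incomplete in the gene and is known to be completed by the poly(A) tail.

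Reads of these 7 genes were divided between gene and copy, and the division differed between the libraries. In all 7 pairs the deposited posterior SD of the count was the same for gene and copy in both libraries, while the 8 rRNA and mRNA genes without a counted copy had a posterior SD of 0. The pair of mt-Co2 and Gm28661 held 88343 and 68356 counts, of which 37.4 and 75.8% were put on mt-Co2, with posterior SDs of 12.4 and 7.98 percentage points. For mt-Nd4l and Gm10222 it was 36.0 and 91.1% of 2254 and 2564 counts (posterior SDs 8.03 and 3.80 points). For mt-Nd3 and Gm28438 it was 27.3 and 59.0% of 11489 and 7939 counts (posterior SDs 2.93 and 4.79 points). In these 3 pairs, by expected counts, the mitochondrial gene received less than its copy in replicate 1 and more in replicate 2. By posterior mean counts mt-Co2 received 45.4 and 74.3%. In replicate 1 that share lies within its posterior SD of an even split.

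The other pairs moved less. mt-Atp6 received 59.6 and 55.1% of its pair, with posterior SDs of 9.87 and 15.9 points, so the libraries lay within the error of the division. mt-Co3 received 79.6 and 89.9%, with posterior SDs of 12.7 and 9.16 points, so its libraries also lay within that error. By posterior mean counts mt-Co3 received 65.6 and 75.2%. mt-Co1 received 98.5 and 99.97%, and mt-Nd4 received 99.96 and 99.92%. Those last 2 genes have long stretches that their copies lack, and their division left little error. Over all 7 pairs, 82.8 and 91.8% of counts were put on the mitochondrial genes. The copies held 0.205 and 0.0976% of all gene counts, and with them added the mitochondrial mRNA share was 1.37 and 1.39% (1.38 ± 0.0182%), against 1.16 and 1.30% without.

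**Figure D2:**
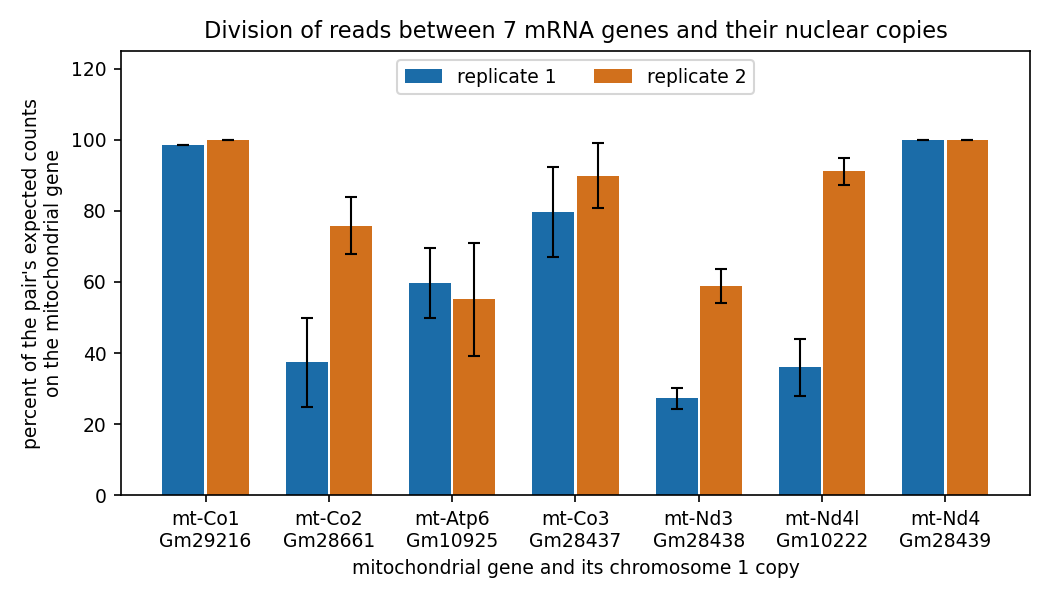
Percent of each pair's expected counts that was put on the mitochondrial gene, with the rest on its chromosome 1 copy; bars are the 2 libraries and error bars the deposited posterior SD of the count as a share of the pair. mt-Co2, mt-Nd3 and mt-Nd4l lie between 27.3 and 37.4% in replicate 1 and between 59.0 and 91.1% in replicate 2, and mt-Co1 and mt-Nd4 lie near the top in both.

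Between the pools, 13 of the 15 mitochondrial rRNA and mRNA genes had ratios within 2-fold. Ratios are replicate 2 over replicate 1 after TMM scaling, with an SE from counting and the posterior SD. With 1 library on each side there is no p-value. Of 17544 genes whose mean count was 10 or more, 11.0% were past 2-fold in either direction, 5.83% higher and 5.16% lower in replicate 2. Of the 15 mitochondrial genes that passed this filter, 2 were past 2-fold, mt-Nd4l higher and mt-Atp8 lower. A share of 2 in 15 is near that background. At 1.5-fold the count was also 2 of 15, beside 22.4% of all genes. The median log2 ratio of the 13 mRNA genes was -0.03, beside -0.0025 for all genes past the filter, and 6 of the 13 were above 0. With library totals in place of TMM the median of all genes moved up by 0.19, and the ratios of mt-Rnr1, mt-Nd1, mt-Co1, mt-Atp6 and mt-Cytb went from below to above 0. By coding TPM these same genes were also higher in replicate 2.

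mt-Atp8 had 833 and 350 counts, a log2 ratio of -1.53 ± 0.0919 (SE). Replicate 2 had the longer fragments, and short genes as a class were lower there: the 219 protein-coding genes of more than 300 and up to 600 nt had a median log2 ratio of -0.53, with 23.3% past 2-fold lower. Genes above 2000 nt had a median of 0.06, with 1.80% past 2-fold lower. The part of fragment length in the ratio of mt-Atp8 was not tested. mt-Nd4l had 811 and 2335 counts, a log2 ratio of 1.25 ± 0.333. With its copy Gm10222 added, the counts were 2254 and 2564 and the ratio was -0.09, no longer past 2-fold and of the other sign.

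Sums of gene and copy gave other ratios for further pairs. mt-Co2 moved from a log2 ratio of 0.37 ± 0.503 to -0.65, and mt-Nd3 from 0.30 ± 0.197 to -0.81. mt-Co3 moved from -0.22 ± 0.273 to -0.39, and mt-Atp6 from -0.10 ± 0.481 to 0.01. mt-Co1 (-0.06 and -0.08) and mt-Nd4 (0.24 in both) hardly moved. With copies added, mt-Atp8 was the only mitochondrial gene past 2-fold, the median log2 ratio of the mRNA genes was -0.09 and 4 of 13 were above 0. Among the copies themselves, Gm29216 had 5585 and 126.6 counts, Gm28661 had 55319 and 16553, Gm28437 had 35745 and 16396, Gm28438 had 8358 and 3257, and Gm10925 had 19791 and 26926. Of these 5, only Gm10925 was higher in replicate 2. In all, 5 of the 7 copies were past 2-fold lower in replicate 2, beside 5.16% of all genes. The division of reads leaves wide errors on some of these, with log2 ratios of -1.40 ± 1.58 (SE) for Gm28437 and -2.02 ± 0.555 for Gm28661, so the first lies within its error. Gm29216 at -5.74 ± 0.303, Gm10222 at -2.93 ± 0.648 and Gm28438 at -1.64 ± 0.181 lay beyond theirs. In the other direction, Gm10925 at 0.17 ± 0.622 and Gm28439 at 1.36 ± 2.55 lay within theirs.

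**Figure D3:**
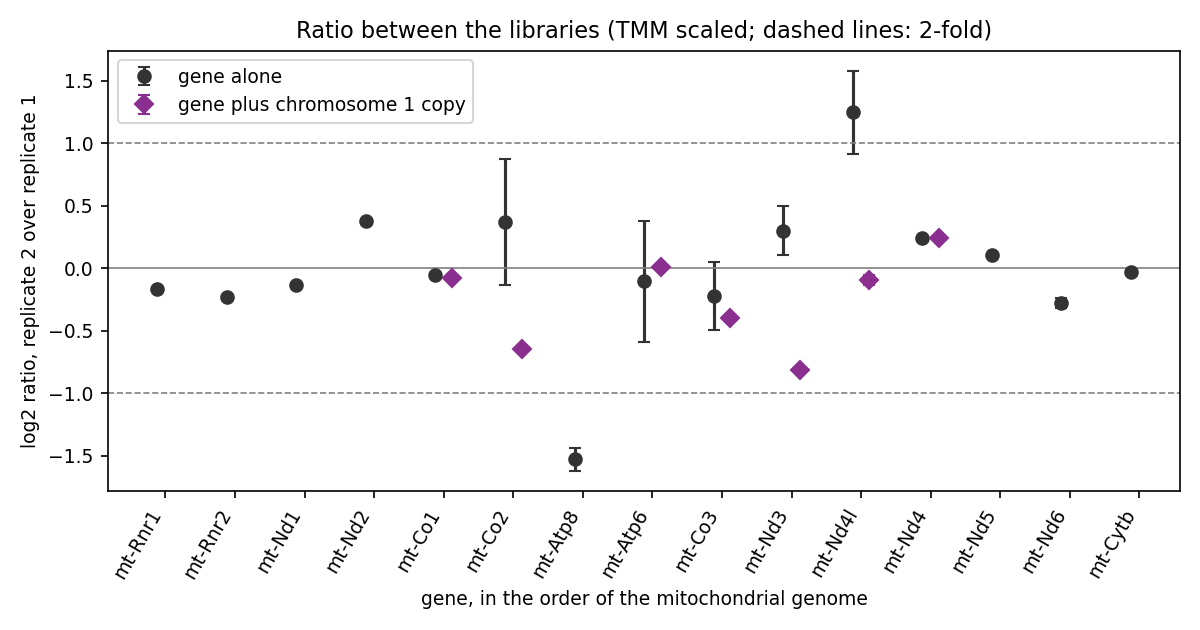
Log2 ratio of replicate 2 over replicate 1 (TMM scaled) for the 15 genes in genome order; circles are the gene alone with its SE from counting and posterior SD, and diamonds the gene plus its chromosome 1 copy with the counting SE. mt-Nd4l lies above the 2-fold line alone and at -0.09 with its copy, and mt-Atp8 lies below the other line.

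The 5 mRNA genes with neither a counted copy nor an effective length of 0 give ratios that rest on neither. They measure 519 to 1824 nt. Their log2 ratios ran from -0.28 ± 0.0396 for mt-Nd6 to 0.38 ± 0.0147 for mt-Nd2. mt-Nd1 stood at -0.13, mt-Cytb at -0.03 and mt-Nd5 at 0.11. By coding TPM the direction was the opposite for mt-Nd1 (2765 and 2881) and mt-Cytb (1191 and 1323), and mt-Nd6 stood at 445 and 441. On both scales mt-Nd2 and mt-Nd5 were higher in replicate 2. The rRNA genes had -0.16 for mt-Rnr1 and -0.23 for mt-Rnr2. The SEs of these genes cover counting only, and the spread between animals cannot be told apart from that between library preparations. Of all genes past the filter, 17.7% had a higher log2 ratio than mt-Nd2.

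Nuclear genes of the same complexes were lower than their mitochondrial partners. The complex I list of 36 nuclear subunits had a median of 199 and 152 coding TPM, against 912 and 1352 for the 7 mitochondrial mRNAs, a ratio of 4.59 and 8.91. In both libraries 6 of the 7 lay above the highest nuclear subunit, and mt-Nd6 was the exception. The 3 highest nuclear members were Ndufa3 (559 ± 200), Ndufc2 (401 ± 43.5) and Ndufb5 (390 ± 17.3), and Ndufa11 was lowest (23.1 ± 1.22). For complex III, mt-Cytb was 5.50 and 7.01 times the median of 9 nuclear subunits, led by Uqcrc1 (334 ± 28.0), Uqcrh (318 ± 80.6) and Uqcr11 (316 ± 134), with Uqcrq lowest (24.6 ± 6.87).

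Complex IV had the widest gap. The median of its 3 mitochondrial mRNAs was 24.6 and 34.2 times that of 15 nuclear subunits, and all 3 exceeded the highest of these, Cox7c (824 ± 220), Cox8a (760 ± 70.5) and Cox6c (674 ± 212). By the mean, Cox7a1, a form of heart and muscle, was lowest (2.36 and 0 coding TPM), while in replicate 1 Cox6a2 was lower still (1.48, and 5.04 in replicate 2). For complex V, mt-Atp6 was 8.48 and 11.0 times the median of 17 nuclear genes, with Atp5b (2577 ± 295), a catalytic subunit, Atp5a1 (1110 ± 224) and the inhibitor Atpif1 (1078 ± 303) highest and Atp5j lowest (161 ± 10.3). By annotated length the ratios of medians were 4.48 and 7.23 for complex I, 5.49 and 7.60 for III, 25.6 and 40.1 for IV and 8.17 and 11.0 for V. Here mt-Atp6 alone stands for complex V. mt-Atp8, which has a value on this scale but no TPM, was 0.777 and 0.390 times the nuclear median, below it in both libraries. On the same scale mt-Atp6 exceeded the highest nuclear gene in replicate 1 only, and 5 and 6 of the complex I mRNAs did so in replicates 1 and 2.

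**Figure D4:**
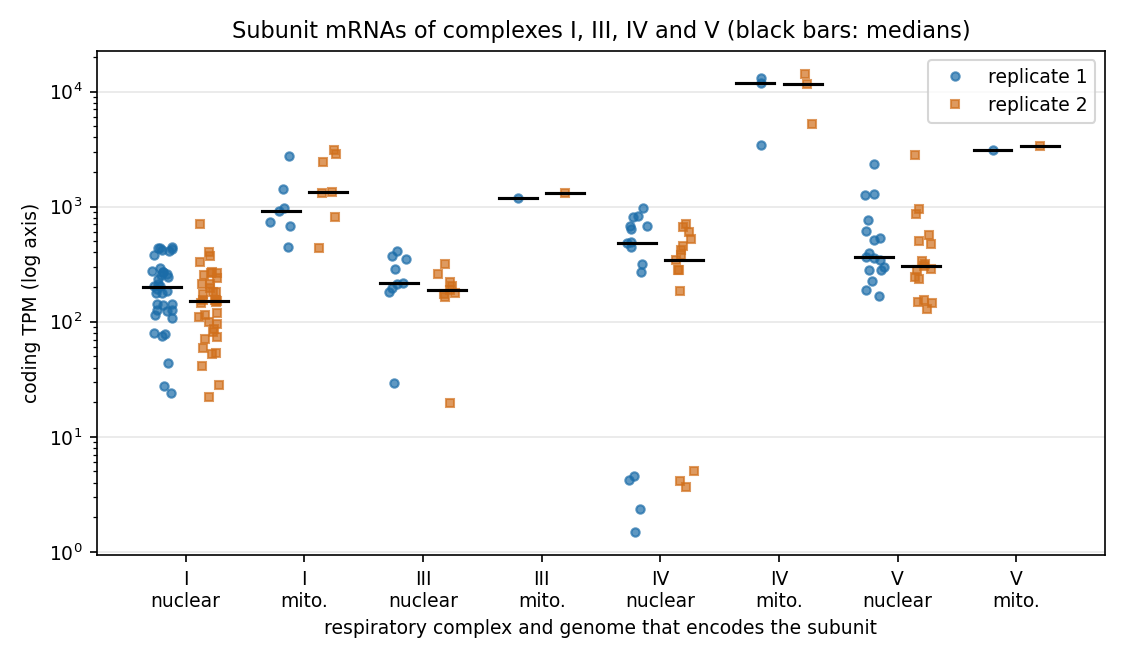
Coding TPM (log axis) of subunit mRNAs of complexes I, III, IV and V by the genome that encodes them, each point a gene in 1 library and each black bar a median; Cox7a1 in replicate 2 and mt-Atp8, listed at 0, are not drawn. The mitochondrial medians lie above the nuclear ones in all 4 complexes and both libraries.

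Between the pools the nuclear subunits were mostly lower in replicate 2. Their median log2 ratio was -0.60 for complex I, -0.45 for III, -0.72 for IV and -0.50 for V, beside -0.0025 for all genes. That of the mitochondrial mRNAs was -0.03, and -0.09 with copies added. Median annotated lengths of the nuclear lists were 755 nt for complex I, 1000.3 for III, 571 for IV and 785 for V. The protein-coding genes of 300 to 600 nt had a median log2 ratio of -0.53, those of 600 to 1000 nt -0.40 and those of 1000 to 2000 nt -0.14. Among the mitochondrial mRNAs of 300 to 1000 nt, log2 ratios were -0.28 for mt-Nd6 and -0.13 for mt-Nd1, which have no counted copy. With copies added, the ratios were -0.81 for mt-Nd3, -0.65 for mt-Co2, -0.39 for mt-Co3 and 0.01 for mt-Atp6. The difference between nuclear and mitochondrial mRNAs was not tested. Past 2-fold lower were Ndufs5 and Ndufa2 (2 of 36 in complex I), Uqcr11 (1 of 9 in complex III), and Atp5j2, Atp5k and Atp5mpl (3 of 17 in complex V), beside the 5.16% of all genes. Among protein-coding genes that share was 23.3% at 300 to 600 nt, 12.3% at 600 to 1000 nt and 4.39% at 1000 to 2000 nt. Past 2-fold higher was Cox6a2, another form of heart and muscle, with 13 and 47 counts, 1 of 14 complex IV genes past the filter.

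Genes that copy and transcribe the mitochondrial genome, and those that process its RNA, were far below the mitochondrial mRNAs in level. The 15187 protein-coding genes past the filter had medians of 20.97 and 23.4 coding TPM. The 17 genes of mitochondrial DNA replication and transcription had medians of 19.2 and 18.3 coding TPM, and none was past 2-fold. The polymerase subunit Polg stood at 57.1 ± 11.3, Mterf3 at 47.1 ± 5.49 and Tfam, which packages the genome and starts transcription, at 36.7 ± 17.4, while Mterf1b was lowest (4.05 ± 0.649). The 22 genes of mitochondrial RNA processing and decay had medians of 31.2 and 32.5, with Fastk (106 ± 30.3), Slirp (72.5 ± 15.1) and Lrpprc (69.3 ± 6.32) highest and Fastkd3 lowest (6.02 ± 0.791). Lrpprc and Slirp form a complex that stabilises mitochondrial mRNAs. Slirp, with 577 and 307 counts, was the only member past 2-fold (1 of 22, log2 ratio -1.19 ± 0.102). By TPM its direction was the opposite, with 61.9 and 83.2 coding TPM. Its partner Lrpprc had a log2 ratio of 0.01. The 76 mitochondrial ribosomal protein genes had medians of 55.2 and 44.9 coding TPM, led by Mrpl52 (171 ± 48.9), Mrpl20 (171 ± 59.2) and Mrps21 (148 ± 56.0), with Mrpl35 lowest (8.56 ± 0.729). Mrps21, Mrpl22 and Mrps28, 3 of the 76, were past 2-fold lower in replicate 2, beside 5.16% of all genes, and the median log2 ratio of the list was -0.41.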

How the data were processed

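Gene and transcript tables of 2 libraries were used, made by the authors from each library alone on mm10 with GENCODE M4, per the text deposited with each sample; no aligner or quantifier is named there. The deposited expected counts are estimated read pairs per gene, not whole where features share reads, and come with a posterior mean and posterior SD. The deposited TPM values are scaled by effective length over all features, spike-ins included, and the deposited FPKM values by effective length and the number of fragments. Symbols, coordinates and sequences came from GENCODE M21 (42462 of 43346 genes matched by identifier; all 37 mitochondrial genes).

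Shares were taken of gene counts without the spike-ins (1.72 and 1.24% of all counts). Coding TPM multiplied TPM by 7.38 and 4.54. Expected counts were rounded for the filter (mean of at least 10) and for TMM scaling in edgeR 4.0.16 (R 4.3.3); log2 ratios had 0.5 added to each count. Nuclear copies were found with BLAST+ 2.17.0. Python 3.11.15, numpy 2.4.6 and pandas 2.3.3 served the other steps. Only the scaling, the log2 ratio and the 2-fold call were tested on simulated counts. All 200 changed genes were recovered there, and 159 unchanged genes were past 2-fold, of 17544 genes simulated. The changed genes were well counted and set to change by more than the 2-fold cut, so their recovery was largely fixed by the design. The simulation held no division of reads with copies and no effect of fragment length, so it does not bear on those.

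All rRNA and mRNA genes are named, the 5 copies with the most counts, and of each nuclear list the 3 highest, the lowest and up to 4 past 2-fold. The length classes of genes were set after values were seen. Members and lists were chosen with earlier results of these data known. Ndufb1, Atp5pb, Atp5md, Prorp and Mrpl33 were not matched. Alternatives were other denominators, FPKM, annotated length, posterior means, DESeq2 1.42.0 size factors, library totals, TMM without mitochondrial and the 10 most abundant genes, other filters (none, 100), a pseudocount of 1, 1.5-fold, 95% identity and leaving out each replicate.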

Additional observations from a re-analysis of the deposited data

How the results depend on the processing

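The share of counts in mitochondrial genes was 17.5% without the polymerase III RNAs and 15.7% with spike-ins counted, and 15.95% with posterior mean counts. Without the polymerase III RNAs the rRNA share was 16.1%. The mRNA share was 1.65% of protein-coding counts, and 1.38% with the chromosome 1 copies added, an alternative chosen after seeing the data. Leaving out each replicate returned the value of the other library, so it is no separate check. It gave 15.9 to 16.1% for all mitochondrial genes, 14.6 to 14.9% for rRNA and 1.16 to 1.30% for mRNA. The ratio of mt-Rnr2 to mt-Rnr1 was then 4.97 to 5.29, and the log2 ratio of plus-strand mRNAs to mt-Nd6 was 1.55 to 2.59. That log2 ratio was 2.19 without mt-Atp8, also chosen after seeing the data. The ratio of mt-Rnr2 to mt-Rnr1 was 5.88 by annotated length. With copies added, 1 gene was past 2-fold in place of 2, mt-Nd4l turned to a log2 ratio of -0.093, and the median of the mRNA genes was -0.093; by the alternative's construction, reads on a gene and its copy then count together. Library totals gave a median of 0.17, in which the shift of all genes is included. Of 120 log2 ratios of single genes under alternatives, 119 stayed on their side of 2-fold and 9 had another sign, 5 of them under library totals and 4 with copies added. The count past 2-fold was 2 under the other normalizations, filters, pseudocount, posterior means and, beside 22.4% of all genes, the 1.5-fold threshold. With posterior means, the log2 ratio of mt-Co2 was 0.063 in place of 0.37. The share of mt-Co3 in mitochondrial mRNA TPM was then 22.9% in place of 26.7%. Nuclear copies were 15 at 90% and 11 at 95% identity. No ratio between the libraries can be had without a replicate, and no paired analysis was possible because there is 1 group. For mt-Atp8, with 833 and 350 counts, the counting SE of the log2 ratio was 0.0919, and its effective length of 0 left it without a TPM. Short effective lengths limit every TPM of genes under 350 nt.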
